A study of Homo sapiens with 9 samples.

Results

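The microRNA genes MIR23B, MIR27B and MIR24-1 form a cluster on chromosome 9, and AOPEP, the gene of an aminopeptidase of the M1 family, is the gene that spans them on the same strand. These 4 genes were followed in ZR-75-1, a long-established human breast cancer line that carries the estrogen receptor. The genes were chosen by symbol, and every probeset that the platform's annotation pairs with one of the 4 symbols was taken. This gave 4 probesets, 1 per gene, of 16098 named probesets for 14884 genes: 17087107 (MIR23B), 17087109 (MIR27B), 17096052 (MIR24-1) and 17087057 (AOPEP). The set was proposed with earlier results of the same arrays in view, so the differences of the mimic arrays from both controls are given for these genes as a description and support nothing further.

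Each group had 3 arrays. One group received the lipid reagent Lipofectamine RNAiMAX with 50 nM of a mimic of mature miR-150-5p, one received the reagent with 50 nM of a non-specific negative control RNA, and the mock group received the reagent with no added RNA. All cells were grown in RPMI-1640 with fetal bovine serum and harvested at 48 h, and total RNA was labelled with biotin and hybridised to Affymetrix Human Gene 2.0 ST arrays, a 1-colour design. The design text gives triplicate transfections without saying that they were independent experiments, so errors and p-values reflect only how these samples scatter, which may be partly technical.

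A primary microRNA transcript is cut in the nucleus into hairpins, and each hairpin is cut again in the cytoplasm into the mature strand that guides Argonaute proteins to messenger RNAs. Bases 2 to 8 of the mature strand, the seed, do most of the pairing with a target. A microRNA gene inside a protein-coding gene on the same strand can be cut from the transcript of that host. The miR-23, miR-27 and miR-24 families are known from work on proliferation, vessel growth and lipid metabolism, and in breast cancer cells miR-23b and miR-27b have been described as acting both for and against tumour growth.

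The hairpins of the 3 microRNA genes are shown to place the cluster and the strands it gives rise to. Capitals mark the mature strand of the 3′ arm. The sequences are from RefSeq, build GRCh38.p14, and all lie on the plus strand, MIR23B at chr9:95085208-95085304, MIR27B at chr9:95085445-95085541 and MIR24-1 at chr9:95086021-95086088.
MIR23B: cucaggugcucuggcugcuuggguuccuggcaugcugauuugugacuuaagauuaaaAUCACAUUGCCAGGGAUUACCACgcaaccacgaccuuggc
MIR27B: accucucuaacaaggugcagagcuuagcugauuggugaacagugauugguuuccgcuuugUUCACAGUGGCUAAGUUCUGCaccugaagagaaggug
MIR24-1: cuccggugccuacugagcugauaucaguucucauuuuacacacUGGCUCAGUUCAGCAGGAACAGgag
The 3 hairpins together span 881 bases. MIR23B and MIR27B are 140 bases apart and MIR27B and MIR24-1 are 479 bases apart. All 68 bases of MIR24-1 also lie within MIR3074, a microRNA gene of the opposite strand. The labels and the annotation do not say which strand the probes read, nor whether they catch primary transcript, hairpin or mature strand. RNA of these overlapping genes therefore cannot be told apart at MIR24-1. Its probeset number, 17096052, is close to those of the neighbouring genes PTCH1 (17096091) and HSD17B3 (17096166) and apart from those of the other members. MIR3074 has no named probeset of its own. Whether the MIR24-1 probeset reads the strand of the cluster or that of MIR3074 was not tested.

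The mature strands were compared with those of the second human cluster of these families, MIR23A, MIR27A and MIR24-2 on chromosome 19, because the families share their seeds across both clusters. Capitals mark the seed.
miR-23b-3p: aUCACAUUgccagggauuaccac
miR-23a-3p: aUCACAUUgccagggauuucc
miR-27b-3p: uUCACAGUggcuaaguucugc
miR-27a-3p: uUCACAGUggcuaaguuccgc
miR-24-3p: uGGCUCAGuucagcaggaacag
The strands of the miR-23 pair matched at 20 of 21 bases compared from the 5′ end, as did those of the miR-27 pair. The miR-24-3p strands of MIR24-1 and MIR24-2 were identical over 22 bases. 

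Median log2 intensity over the 53617 probesets of an array was between 4.22 and 4.27. Of the 9 arrays, 7 correlated better with their own group than with the other groups over the named probesets. Mimic replicate 2 and mock replicate 3 did not (mean r 0.9938 and 0.9933 with their own group, 0.9940 and 0.9935 with the others), and the results are given with and without them. All 7 luminal epithelial markers examined were above the median mean level of named probesets (5.36). Of 8 markers listed for other cells 3 were measured, KRT5, KRT14 and PECAM1, and these were below it. The listed markers of leukocytes (PTPRC, CD3E) and fibroblasts (COL1A1, COL3A1) had no named probeset, so those cells were not checked. The MIR150 probeset read 4.47, 3.96 and 4.17 in the mimic arrays, 4.17, 3.93 and 4.17 in the negative control arrays and 4.39, 4.14 and 3.66 in the mock arrays. It is not known to read the transfected strand and is no check of delivery.

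MIR23B, MIR27B and AOPEP read higher on all 3 mimic arrays than on any control array, by 1.28 to 1.66-fold on average, and MIR24-1 did not. Of all named probesets, 8.23% stood above the negative control arrays without overlap and 7.16% above the mock arrays. The share above all 6 control arrays was not counted, and the genes were proposed with these contrasts known. MIR23B gives rise to miR-23b, whose family is known to act on glutaminase and on TGF-beta signalling genes. Its log2 intensity was 7.28, 7.34 and 7.24 in the 3 mimic arrays, against 6.92, 6.70 and 6.81 in the negative control arrays and 6.75, 6.69 and 6.66 in the mock arrays. All 3 mimic arrays were above all 6 control arrays, with 0.32 between the lowest mimic and the highest negative control array. The mean was 7.28 ± 0.05 (SD, n = 3) in mimic, 6.81 ± 0.11 in negative control and 6.70 ± 0.04 in mock arrays. The log2 difference was 0.47 ± 0.07 (SE) from the negative control, a 1.39-fold difference with a 95% interval from 1.24 to 1.56, and 0.58 ± 0.07 from mock, which is 1.50-fold (1.34 to 1.68).

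MIR27B gives rise to miR-27b, a microRNA known as a regulator of lipid metabolism and of CYP1B1, an estrogen-metabolising enzyme. Its log2 intensity was 7.49, 7.24 and 7.36 in mimic arrays, 6.80, 6.89 and 7.00 in negative control arrays and 6.69, 6.51 and 6.71 in mock arrays. The 3 groups did not overlap, and their order was mimic, negative control, mock. The group means were 7.37 ± 0.12, 6.90 ± 0.10 and 6.63 ± 0.11 (SD, n = 3 each) in that order. The log2 difference of mimic was 0.47 ± 0.09 (SE) from the negative control, or 1.38-fold (95% interval 1.20 to 1.60), and 0.73 ± 0.09 from mock, or 1.66-fold (1.44 to 1.92).

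MIR24-1 gives rise to miR-24, a family known to act on cell cycle genes. Its log2 intensity was 2.41, 2.38 and 2.62 in mimic arrays, 2.44, 2.50 and 2.76 in negative control arrays and 2.53, 2.46 and 2.49 in mock arrays. The 3 groups overlapped. The log2 difference of mimic was -0.10 ± 0.10 (SE) from the negative control, with a 95% interval from -0.32 to 0.13, and -0.02 ± 0.10 from mock (-0.25 to 0.20). The probeset lay far below the median of named probesets on every array and the table holds no detection call, so it cannot be said whether its RNA was detected at all.

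AOPEP encodes aminopeptidase O, a zinc-dependent peptidase of the family that also holds the leukotriene A4 hydrolase and the aminopeptidases of antigen trimming. Its log2 intensity was 7.36, 7.23 and 7.54 in mimic arrays, 6.99, 7.00 and 7.06 in negative control arrays and 6.77, 6.90 and 7.16 in mock arrays. All mimic arrays were above all control arrays, by 0.16 at the nearest against the negative control and by 0.063 at the nearest against mock, where mock replicate 3 stood closest. The means were 7.37 ± 0.16 in mimic, 7.02 ± 0.04 in negative control and 6.94 ± 0.20 in mock arrays (SD, n = 3 each). The log2 difference was 0.36 ± 0.11 (SE) from the negative control, or 1.28-fold (95% interval 1.07 to 1.52), and 0.43 ± 0.11 from mock, or 1.35-fold (1.13 to 1.60). Neither passed the threshold over all probesets. In a bulk culture, more RNA per cell and more cells that carry it cannot be told apart, here as for the microRNA genes.

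**Figure D1:**
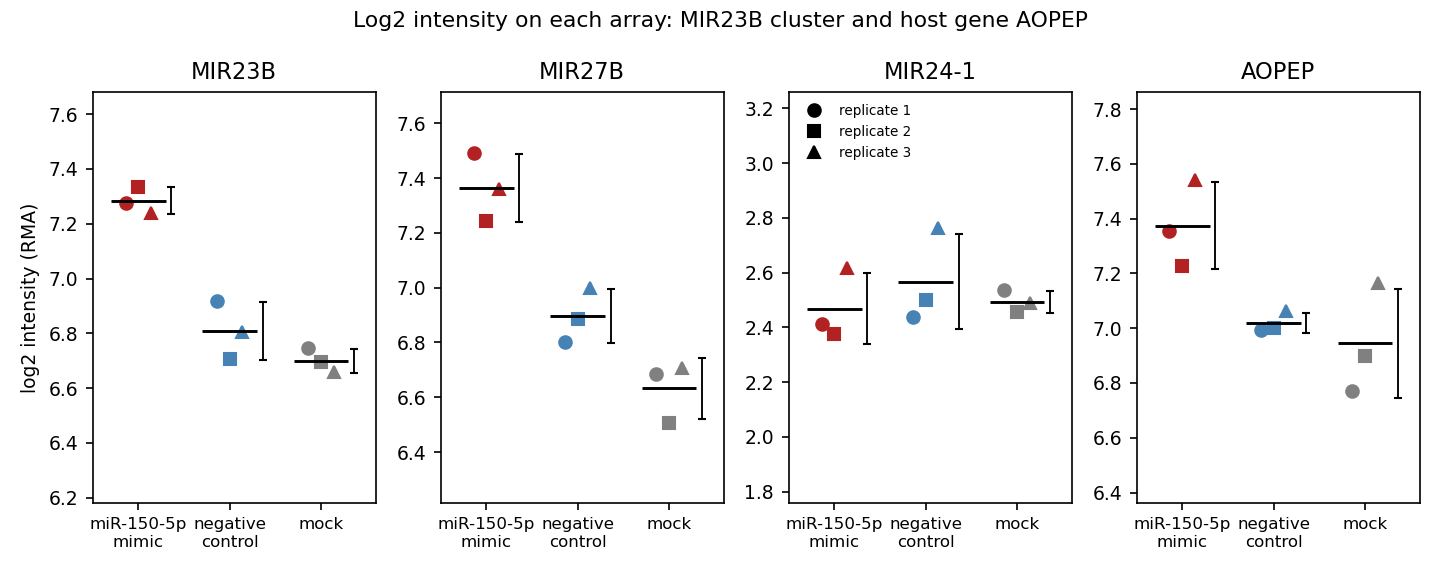
Log2 intensity (RMA, vertical axis) of the 4 probesets on each array, by group (horizontal axis: mimic, negative control, mock); symbols are replicates, horizontal lines are means, bars are SD, and every panel spans the same range of log2 units. The mimic arrays stand above all control arrays for MIR23B (7.24 to 7.34), MIR27B (7.24 to 7.49) and AOPEP (7.23 to 7.54), and among them for MIR24-1 (2.38 to 2.62).

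Calls were made with limma over all 16098 named probesets, at a Benjamini-Hochberg adjusted p under 0.05. Against the negative control, 1 of the 4 probesets was called, MIR23B, and it was higher, where 0.466% of all named probesets were called and 0.168% called higher. Against mock 2 of the 4 were called, MIR23B and MIR27B, both higher, where 0.217% of all were called and 0.112% called higher. The mimic arrays were above the control arrays without overlap for 3 of the 4 in each comparison, where this held for 8.23% of all named probesets against the negative control and 7.16% against mock. Since these contrasts were known when the genes were proposed, nothing is read from the counts. Both comparisons use the same 3 mimic arrays.

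The calls of MIR23B and MIR27B were lost in most alternatives, some of which kept all 9 arrays. MIR23B was called against the negative control in 6 of 18 alternatives, and in 1 of 9 fits that left out an array, the fit without mock replicate 3. Its difference stayed between 0.42 and 0.53 in all 18. Against mock MIR23B was called in 1 of these 9 fits, the one without negative control replicate 2, and MIR27B in 0 of 9, with differences in the 9 fits from 0.56 to 0.61 for MIR23B and from 0.67 to 0.79 for MIR27B. With mimic replicate 2 and mock replicate 3 both left out, none of the 3 calls was made, and the differences were 0.45 (MIR23B), 0.53 (MIR27B) and 0.43 (AOPEP) from the negative control and 0.54, 0.83 and 0.61 from mock. AOPEP was called in 0 of 18 alternatives in either comparison.

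**Figure D2:**
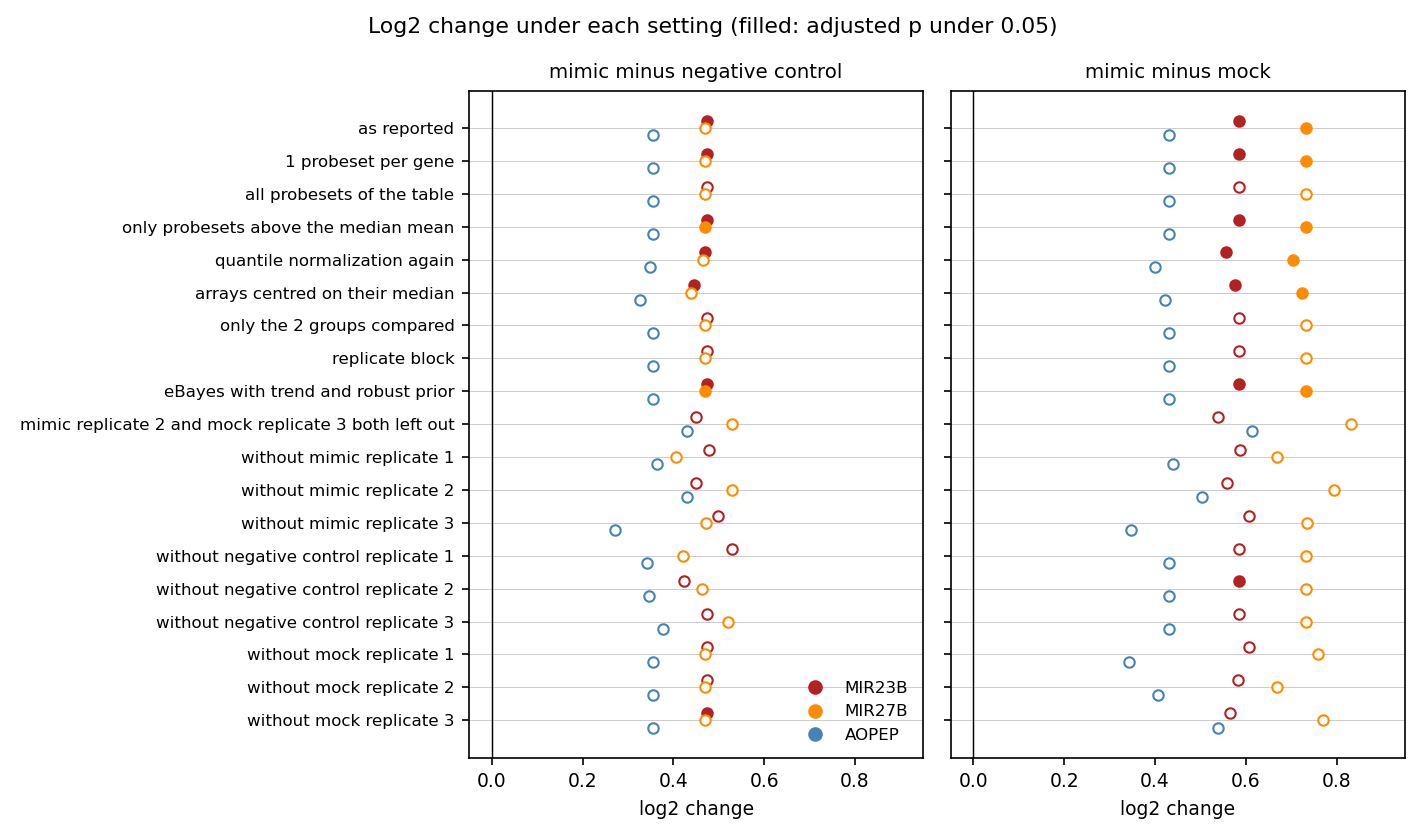
Log2 change (horizontal axis) of MIR23B, MIR27B and AOPEP under the reported setting and the alternatives (vertical axis), for mimic minus negative control and mimic minus mock; filled points have an adjusted p under 0.05. Every point is above 0, and for mimic minus negative control the MIR23B points lie between 0.42 and 0.53 while most fits that leave out an array are unfilled.

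Transfection of an RNA as such is described by negative control against mock. Of the 4 probesets 0 passed in limma, where 0% of all named probesets were called and 663 of 16098 had an unadjusted p under 0.05. The log2 difference was 0.11 ± 0.07 (SE) for MIR23B, 0.26 ± 0.09 for MIR27B, 0.07 ± 0.10 for MIR24-1 and 0.07 ± 0.11 for AOPEP, all with an adjusted p = 0.979. MIR27B was the 1 member whose negative control arrays all stood above its mock arrays, by 0.095 at the nearest, where 4.75% of all named probesets did so. Its 95% interval ran from 0.06 to 0.47 and its unadjusted p was 0.0183. For MIR23B and AOPEP the order of negative control and mock was within their spread.

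The other cluster of the same families was given beside it. MIR23A read 2.90, 3.19 and 3.35 in mimic arrays, 2.52, 3.14 and 2.90 in negative control arrays and 3.14, 3.14 and 2.89 in mock arrays, a difference of 0.29 ± 0.16 (SE) from the negative control and 0.09 ± 0.16 from mock. The groups overlapped, and 3 arrays carried the identical value of 3.14. MIR27A read 4.88, 5.14 and 4.76 in mimic arrays, 4.52, 4.90 and 4.42 in negative control arrays and 4.71, 4.47 and 4.57 in mock arrays, a difference of 0.31 ± 0.14 and 0.35 ± 0.14. Its mimic arrays overlapped the negative control arrays and stood above the mock arrays. MIR24-2 read 6.17, 5.98 and 6.18 in mimic arrays, 6.70, 6.19 and 6.29 in negative control arrays and 6.22, 6.22 and 6.13 in mock arrays, a difference of -0.29 ± 0.13 and -0.08 ± 0.13. Its mimic arrays lay below the negative control arrays and overlapped the mock arrays. None of the 3 passed in limma in either comparison (lowest adjusted p = 0.409 for MIR24-2 against the negative control and 0.438 for MIR27A against mock). With 1 array left out, the difference from the negative control ran from 0.13 to 0.44 for MIR23A and from -0.39 to -0.13 for MIR24-2, the smaller size of each without negative control replicate 1. For MIR27A it ran from 0.21 to 0.46, the lowest without mimic replicate 2. From mock it ran from -0.014 to 0.21 for MIR23A, from 0.24 to 0.43 for MIR27A and from -0.12 to -0.014 for MIR24-2. The group means of MIR23A (2.85 to 3.14) and MIR27A (4.58 to 4.93) lay below the median of named probesets (5.36). Those of MIR24-2 (6.11 to 6.39) lay above it. Without detection calls it cannot be said whether RNA of MIR23A or MIR27A was detected. Whether the 2 clusters differ in their response was not tested.

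**Figure D3:**
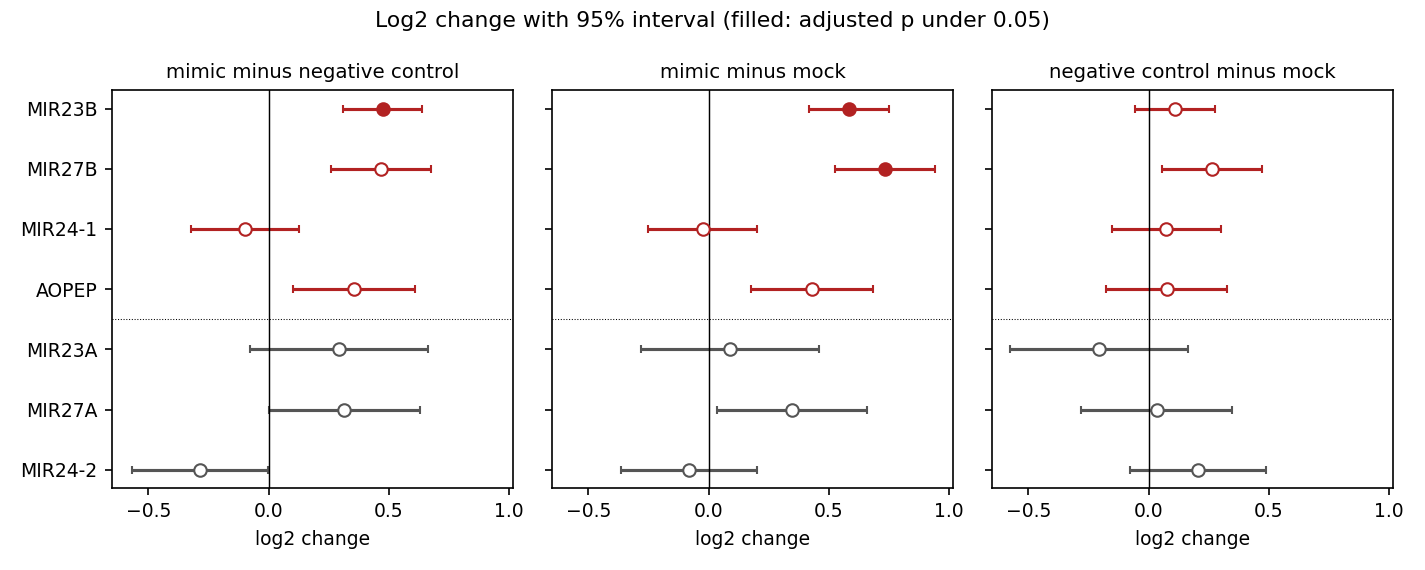
Log2 change with its 95% interval (horizontal axis) of the 4 members (red) and of the 3 genes of the MIR23A cluster (grey, below the dotted line) in the 3 comparisons; filled points have an adjusted p under 0.05. MIR23B is filled against both controls and MIR27B against mock, and every interval of MIR24-1 includes 0.

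Among the 1236 probesets of microRNA genes, 4 were called higher and 1 lower against the negative control, and 3 higher and 0 lower against mock. The median log2 change of these probesets was 0.05 and 0.02, beside 0.013 and 0.012 over all named probesets. A larger change than that of MIR23B was found in 21 of the 1236 against the negative control and 18 against mock. For MIR27B the numbers were 30 and 8, and for MIR24-1 1005 and 735. For AOPEP, which is no microRNA gene, 82 and 36 of them had a larger change. Both comparisons share the mimic arrays. Of the 1236 probesets, 260 had a mean level above the median of named probesets (5.36). MIR23B (6.93), MIR27B (6.96) and AOPEP (7.11) were above it and MIR24-1 (2.51) was not. Most of the probesets ranked were thus dimmer than MIR23B and MIR27B. The 1236 include MIR23B, MIR27B and MIR24-1, and those called higher include MIR23B in both comparisons and MIR27B against mock. The contrasts were known when the genes were proposed, so nothing is read from these ranks.

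**Figure D4:**
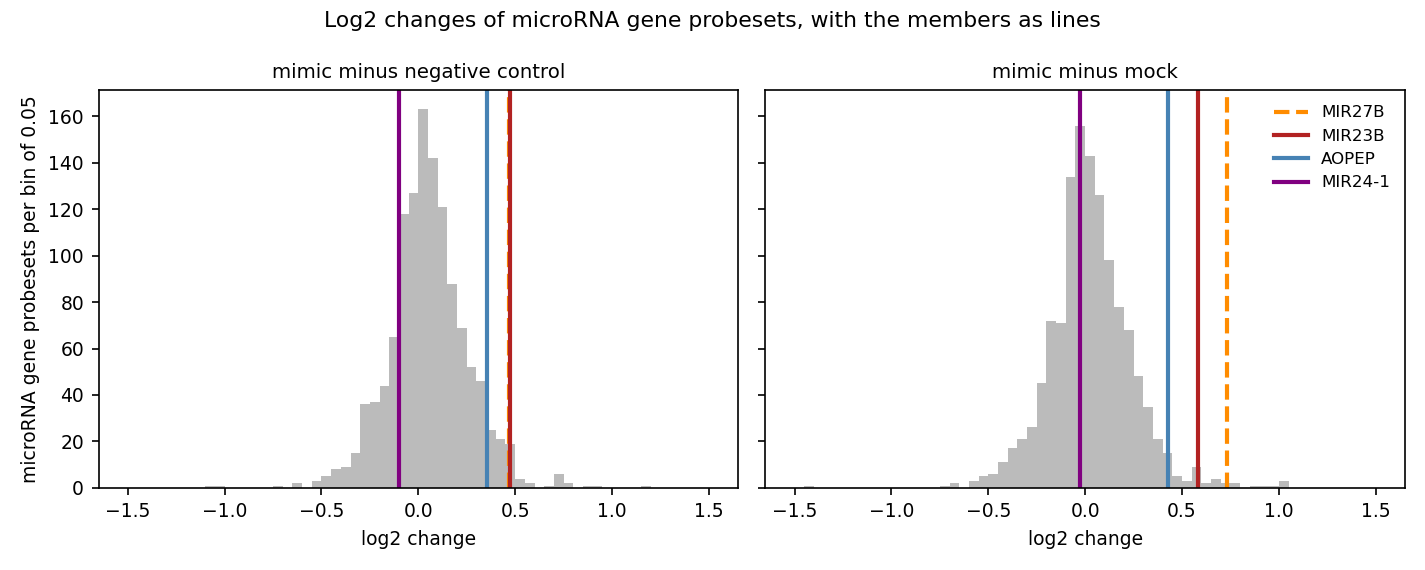
Number of microRNA gene probesets (vertical axis, bins of 0.05 log2 units) by log2 change (horizontal axis) for mimic minus negative control and mimic minus mock, with the 4 members as lines. MIR23B (0.47 and 0.58) and MIR27B (0.47 and 0.73) lie in the upper tail and MIR24-1 (-0.10 and -0.02) below the median of 0.05 and 0.02.

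RefSeq places 6 microRNA genes within AOPEP, 4 of them measured here. The fourth, MIR2278, read 3.71, 4.18 and 4.35 in mimic arrays, 3.36, 4.71 and 3.90 in negative control arrays and 4.27, 4.21 and 4.18 in mock arrays. The groups overlapped, with a log2 difference of 0.09 ± 0.29 (SE) from the negative control and -0.14 ± 0.29 from mock (adjusted p = 0.926 and 0.891 in limma). Of the 10 protein-coding genes nearest to AOPEP by start, taken equally from both sides, 4 were measured: ZNF169, SLC71A2, PTCH1 and HSD17B3. None passed, and their median log2 change was -0.03 against both controls. PTCH1, the receptor that restrains Hedgehog signalling, had the lowest p, with -0.52 ± 0.12 from the negative control (adjusted p = 0.116) and -0.37 ± 0.12 from mock (0.326). Of 11 relatives of AOPEP in the M1 family, 10 were measured and none passed, with 4 positive and 6 negative changes against each control and medians of -0.025 and -0.028. NPEPPS, the puromycin-sensitive aminopeptidase, had the lowest p, with 0.36 ± 0.10 and 0.37 ± 0.10 (adjusted p = 0.196 and 0.241).

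The window before the first AOPEP start is shown to place the start of the host gene. Whether the window bears on the levels of AOPEP, MIR23B or MIR27B was not tested. It is from RefSeq, chr9:94726449-94726698, GRCh38.p14, plus strand, and 62.8% of its 250 bases are G or C. Capitals mark a cyclic AMP response element and 2 GC boxes, in the order GC box, GC box, response element.
AOPEP: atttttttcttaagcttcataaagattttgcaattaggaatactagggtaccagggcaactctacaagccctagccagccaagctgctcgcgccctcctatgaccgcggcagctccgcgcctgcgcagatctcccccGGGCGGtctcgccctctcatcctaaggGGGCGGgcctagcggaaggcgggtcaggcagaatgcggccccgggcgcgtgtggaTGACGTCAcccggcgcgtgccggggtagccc
Both strands were searched for 5 motifs, picked after the window had been seen. The cyclic AMP response element, TGACGTCA, was found 1 time, beginning 31 bases before the start, and is in 1.65% of 35116 windows of the same length. The GC box, GGGCGG, was found 2 times and is in 42.6% of windows. The letters of the E-box (CACGTG, 6.34% of windows), the AP-1 element (TGANTCA, 6.57%) and the RUNX element (TGTGGT, 11.0%) are not in this window. None of the 5 was found in the window of the second AOPEP start in the table. No listed motif contains another, and a match describes letters only.

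Genes that have been reported as targets of the mature strands were taken from 3 lists. MET and SMAD3 stand in 2 of them, and MYC stands in the miR-24 list and among the transcription factors. Of 12 listed for miR-23, 7 were measured by 8 probesets. None passed in either comparison, although CXCL12 did when only probesets above the median mean were tested (adjusted p = 0.0300 and 0.0462). Against the negative control 7 of the 8 changes were positive, with a median of 0.25, and against mock all 8, with a median of 0.26. Over all 16098 named probesets 8676 and 8673 changes were positive, with medians of 0.013 and 0.012. For negative control minus mock 6 of the 8 were positive, with a median of 0.027. CXCL12, a chemokine that is induced by estrogen in breast cancer cells, had the lowest p, with 0.72 ± 0.15 (SE) and 0.74 ± 0.15 (adjusted p = 0.0758 and 0.120). Of 14 listed for miR-27, 9 were measured and none passed, with 4 positive and 5 negative changes against each control and medians of -0.0053 and -0.055. SPRY2, an inhibitor of receptor tyrosine kinase signalling, had the lowest p against the negative control (-0.30 ± 0.09, adjusted p = 0.243). It differed by -0.24 from mock. The lowest p against mock was that of SMAD3, a mediator of TGF-beta signals (0.31 ± 0.11, adjusted p = 0.369). SMAD3 differed by -0.017 from the negative control, and its negative control arrays read 0.32 above mock on average. Of 13 listed for miR-24, 9 were measured and none passed, with 3 positive and 6 negative changes against the negative control, 5 and 4 against mock, and medians of -0.019 and 0.00038. CDKN2A, a cell cycle inhibitor, had the lowest p against the negative control (-0.48 ± 0.13, adjusted p = 0.186). It differed by -0.20 from mock, and its negative control arrays read 0.28 above mock on average. The lowest p against mock was that of BCL2L11, which encodes the pro-apoptotic BIM (0.24 ± 0.09, adjusted p = 0.379). BCL2L11 differed by 0.11 from the negative control, and its negative control arrays read 0.12 above mock on average.

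Of 8 transcription factor genes examined with the locus, measured by 9 probesets, ESR1 rose against both controls and 8 probesets did not pass. ESR1, the estrogen receptor alpha gene and also a luminal marker here, read 9.04, 9.02 and 8.98 in mimic arrays, 8.50, 8.52 and 8.64 in negative control arrays and 8.52, 8.55 and 8.63 in mock arrays. Its log2 change was 0.46 ± 0.07 (SE) and 0.45 ± 0.07 (adjusted p = 0.0322 and 0.0456 in limma). The call held in 6 of 18 alternatives against the negative control and 3 of 18 against mock, and in 1 and 0 of the 9 fits that left out an array. MYC, known as a repressor of miR-23 genes, had 0.15 ± 0.09 and 0.12 ± 0.09 (adjusted p = 0.548 and 0.680), and 0.078 and 0.049 without mimic replicate 1. The median over the 9 probesets was 0.12 against each control. The part of any of these factors in the levels of the cluster was not tested.

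The likeness of other genes was measured as Pearson's r of log2 values over the 9 arrays, among 7714 probesets above the median mean level that are neither members nor small RNA genes. The arrays share their groups, so r takes in the distance between mimic and control arrays as well as the scatter within groups. It is given as a description. Most like MIR23B were CREBZF, a bZIP transcription factor (r = 0.97), TNRC6A, a scaffold of the silencing complex (r = 0.96), and AFTPH, a protein of clathrin-coated vesicles (r = 0.96), and 42 of the 7714 had an r over 0.9. After each group's mean was taken off, the r of these 3 with MIR23B was 0.46, 0.22 and 0.32. Most like AOPEP were PCMTD1 (r = 0.96), N4BP2L2-IT2 (r = 0.96) and NUP153, a nuclear pore protein (r = 0.96), and 35 had an r over 0.9. Their r with AOPEP within groups was 0.88, 0.87 and 0.93. The genes were picked by r over the same 9 arrays, so r within groups is partly set by that choice.

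Between the members themselves, r over the 9 arrays was 0.89 for MIR23B with MIR27B, 0.76 for MIR23B with AOPEP and 0.84 for MIR27B with AOPEP. MIR24-1 had an r of -0.26, -0.0041 and 0.029 with MIR23B, MIR27B and AOPEP. Within groups r was -0.33 for MIR23B with MIR27B, -0.50 for MIR23B with AOPEP and 0.35 for MIR27B with AOPEP, again over 9 arrays. Within groups MIR24-1 had an r of -0.30 with MIR23B, 0.51 with MIR27B and 0.41 with AOPEP. Among mimic arrays MIR23B was highest in replicate 2, MIR27B in replicate 1 and AOPEP in replicate 3. Among negative control arrays, and also among mock arrays, MIR27B and AOPEP were both highest in replicate 3 and MIR23B in replicate 1.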

How the data were processed

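Log2 values of 9 arrays were used as deposited, 1 value per probeset and array. The authors made these log2 values with RMA, per the submitters' processing notes. RMA subtracts background, brings the arrays to 1 distribution and joins the probes of a probeset into 1 log2 value. The sources used here give no RMA version, probe annotation or build. The table has no detection calls, and precision is limited by the number of arrays.

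The platform's annotation named 16098 of 53617 probesets by 1 gene symbol and none by several, and all matched RefSeq by gene ID (GRCh38.p14, used for names, neighbours and sequences). All named probesets were fitted in R 4.3.3 with limma 3.58.1 (lmFit, eBayes), 1 mean per group over 9 arrays with 6 residual degrees of freedom, two-sided, Benjamini-Hochberg adjusted over the 16098, threshold 0.05. Every named probeset was kept because the members are defined by probeset. With 3 arrays against 3, exact permutation reaches no p below 0.1 and was not used. The fit was tested on simulated data. Descriptions and figures used Python 3.11.15.

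The members and gene lists were chosen with earlier results of these data known. Motifs were chosen after the promoter windows had been seen. From each list the genes past the threshold are named, or the 1 with the lowest p, lists of up to 3 genes and measured microRNA genes within AOPEP are given whole, and the 3 genes most like MIR23B and AOPEP are named. Listed genes without a named probeset count as not measured. Alternatives were 1 probeset per gene, all probesets, probesets above the median mean, quantile normalization repeated, arrays centred on their median, the 2 groups alone, the replicate block, a trended robust prior, and leaving out each array. A fit without mimic replicate 2 and mock replicate 3 was added after seeing the data.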

Additional observations from a re-analysis of the deposited data

How the results depend on the processing

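Of 213 alternative values of the 4 members' log2 changes, 168 kept their direction and side of the threshold, 37 lost a call, 2 gained one and 6 changed sign. All 37 losses fell on the 3 calls made, and the other results had no call to lose. MIR23B lost its call in 12 of 18 alternatives against the negative control and in 12 of 18 against mock. MIR27B lost its call against mock in 13 of 18. MIR24-1 was not tested above the median mean level. The calls of MIR23B against the negative control (0.47) and of MIR23B and MIR27B against mock (0.58 and 0.73) were lost, at unchanged sizes, over all probesets of the table, with the 2 groups alone and with the replicate block. They were also lost with mimic replicate 2 and mock replicate 3 both left out (0.45, 0.54 and 0.83), where MIR24-1 against mock was 0.020. MIR27B against the negative control (0.47) was called among probesets above the median mean and with the trended robust prior. Leaving out 1 array gave 0.42 to 0.53 for MIR23B, 0.40 to 0.53 for MIR27B and -0.17 to 0.00043 for MIR24-1 against the negative control. Against mock it gave 0.56 to 0.61, 0.67 to 0.79 and -0.100 to 0.022. For negative control minus mock it gave -0.025 to 0.14 for MIR24-1 and -0.012 to 0.18 for AOPEP. Among the other named genes 27 of 454 values lost a call, all of ESR1, 2 gained one, both of CXCL12, and 7 changed sign. With 1 array left out, MIR2278 ran from -0.22 to 0.45 against the negative control and from -0.27 to 0.046 against mock, SMAD3 from -0.098 to 0.081 against the negative control and MIR23A from -0.014 to 0.21 against mock. MIR23A against mock was -0.015 with both arrays left out. The cause of these changes was not tested.

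The number of named probesets called was 75 against the negative control (27 higher, 48 lower) and 35 against mock (18 and 17), and quantile normalization turned the split against mock to 12 and 22. It was 6 and 3 over all probesets, 247 and 92 above the median mean, 6 and 1 with the 2 groups alone, 153 and 54 with the trended robust prior, 6 and 0 with both arrays left out, and 2 to 114 and 0 to 8 with 1 array left out. With the replicate block it was 14 and 3. Same-numbered arrays' deviations from their group means correlated between -0.07 and 0.14, and those of differently numbered arrays between -0.17 and 0.15. These values cannot settle whether the numbers pair the samples, so the replicate block is given as an alternative. No member or probeset was called for negative control against mock in any alternative. No signal above background can be stated, since the table gives none.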
